A study of Mus musculus with 14 samples.

Results

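The genes described here are those whose expression was higher in 4 lines grown from the same FAK knockout clone than in the parental cells, whether or not FAK or β-catenin had been added back. They were chosen by measured values. A protein-coding gene was kept when its mean expression was above 1 FPKM (fragments mapped to a gene, scaled by its length and by the depth of the library) in each of the 4 lines and, after 0.1 FPKM was added to every mean, at least 2 times the mean of the parental cells in each of them. Of 22026 protein-coding genes among the 35275 genes in the table, 110 met this rule, and 11384 were above 1 FPKM in at least 1 line. The mirror of the rule, a mean above 1 FPKM in parental cells and at least 2 times that of each of the 4 lines, was met by 99 genes.

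The parental line was KMF, mouse ovarian tumor cells recovered from C57Bl6 mice carrying ID8 cells and used with their own FAK (3 samples). FAK KO cells were KT13, 1 clone of KMF made by CRISPR editing of the FAK gene Ptk2, enriched with puromycin and cloned by dilution (3 samples). FAK-WT cells were KT13 with lentiviral GFP-FAK (3 samples), and FAK-R454 cells were KT13 with lentiviral GFP-FAK that lacks kinase activity (2 samples). β-catenin ΔGSK cells were KT13 with a retroviral β-catenin that cannot be phosphorylated by GSK3β (3 samples), still without FAK. After transduction these lines were selected with puromycin or hygromycin and sorted by flow cytometry. No KT13 line with an empty vector was among the samples. In comparisons with FAK KO cells, the added gene therefore cannot be told apart from transduction, drug selection and sorting. All cells grew as tumorspheres for 5 days in serum-free medium without attachment, and all 4 KT13 lines carry the Ptk2 edit. Because they descend from 1 clone, a gene gained in all 4 is 1 observation of that clone and not 4 independent ones. Absence of FAK is not common to the 4 lines, since 2 of them carry re-expressed FAK. Lasting effects of its earlier loss, of cloning and of selection cannot be told apart for such a gene. The labels call the samples independent RNA samples and give no batch, so p-values measure only the spread between these samples.

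FAK is a cytoplasmic tyrosine kinase that acts where integrins hold the cell to the matrix. β-catenin escapes destruction when GSK3β cannot phosphorylate it and then acts with TCF/LEF factors on Wnt target genes. Cells of a tumor line differ from each other, and a line grown from a single cell carries forward the heritable state of that cell, including its copy number changes and its silenced or active promoters.

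Between 25390558 and 35289859 fragments per sample fell on genes. Ptk2 mRNA stood at 24.3 ± 0.421 FPKM in KMF cells (SD, n = 3) and 18.97 ± 1.45 in FAK KO cells (SD, n = 3), so a count over the whole gene does not show the edit. The third FAK-WT sample stood apart: among the 3 FAK-WT samples it lay farthest from the middle value for 76 of the 110 members, or 69.1%, as it did for 60.1% of expressed protein-coding genes. Over expressed genes the third KMF sample (57.1%) and the first β-catenin ΔGSK sample (56.4%) were nearly as often the farthest of their line, though over members at 45.5% and 38.2%. Over members the third β-catenin ΔGSK sample was the farthest of its line most often, at 43.6% against 26.4% of expressed genes. Without the third KMF sample, 98 genes met the rule and 15 of the 110 were lost. Calls that rest on the third FAK-WT sample are given with and without it. The leukocyte markers Ptprc and Csf1r were under 0.1 FPKM in every line, as were Cdh5, Kdr, Vwf, Cldn5 and Emcn of 8 endothelial markers. The endothelial sum, nearly all of it Tek, was 29.7 to 30.04 FPKM in KMF samples, 6.72 to 7.68 with β-catenin ΔGSK and 17.3 to 19.4 in the other samples. Of 12 leukocyte markers found, 2 (Cd14 and Cd68) were above 1 FPKM in any line, and the sum of the 12 ran from 7.82 to 8.30 FPKM in KMF samples, 6.92 to 7.21 in FAK KO, 11.6 to 16.7 with FAK-WT, 8.81 to 9.17 with FAK-R454 and 4.13 to 5.27 in β-catenin ΔGSK samples. The fibroblast sum, most of it Dcn, was 41.8 to 49.9 FPKM in KMF samples, 30.8 to 45.1 with β-catenin ΔGSK and 90.01 to 145 in the other samples, with Pdgfrb, Postn, Col1a2, Thy1 and Lum of its 8 markers under 0.1 FPKM. Pdgfra was at 9.06 FPKM in KMF, 3.03 in FAK KO, 10.3 with FAK-WT, 8.87 with FAK-R454 and 0.815 with β-catenin ΔGSK, and Col1a1 at 2.46, 1.33, 9.12, 10.1 and 0.194. The mesothelial sum was 184 to 208 FPKM in KMF samples, 199.9 to 208 in FAK KO, 215 to 245 with FAK-WT, 251 to 259 with FAK-R454 and 306 to 328 with β-catenin ΔGSK, where Wt1 was at 227 FPKM against 89.4 in KMF, and Upk3b was highest with FAK-R454, at 31.6 FPKM against 7.91 in KMF. Of 10 ovarian surface or tubal epithelial markers, 4 were above 1 FPKM in any line: Wt1 and the keratins Krt8, Krt18 and Krt19, which were high in all 5 lines. Epcam, Pax8, Cdh1, Krt7, Muc16 and Ovgp1 were under 1 FPKM in every line. Cdh1 was at 0.760 FPKM in KMF, 0.0986 in FAK KO, 0.0234 with FAK-WT, 0.0229 with FAK-R454 and 0.0401 with β-catenin ΔGSK. The sum of the 10 was 1104 to 1125 FPKM in KMF samples and 999.7 to 1167 in FAK KO. It was 1470 to 1708 with FAK-WT, 1151 to 1190 with FAK-R454 and 1167 to 1337 with β-catenin ΔGSK. None of the markers listed for these 5 cell types was a member, and their part in the members' levels was not tested. In bulk RNA, fewer cells of a kind and less RNA per cell cannot be told apart.

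The members ranged from nearly silent to well expressed in KMF cells, with a median of 331 fragments over the 3 KMF samples. Their median mean was 0.922 FPKM in KMF cells and 5.52 FPKM over the 4 clone-derived lines, and 56 of the 110 were under 1 FPKM in KMF cells. The median ratio to KMF was 3.93 in FAK KO, 3.25 with FAK-WT, 3.57 with FAK-R454 and 3.79 with β-catenin ΔGSK. Each line on its own exceeded KMF by the rule at 3.72%, 3.74%, 4.15% and 5.78% of the 11384 expressed protein-coding genes, in the same order. In 108 of the 110 genes every one of the 11 clone-derived samples was above every KMF sample, which was so for 9.69% of expressed protein-coding genes. These numbers follow from the choice and are a description. The exceptions were Siglec15, whose lowest β-catenin ΔGSK sample was at 0.470 FPKM, and the predicted gene Gm6020, with only 9 fragments in all KMF samples. The plot of all members by sample shows pale KMF columns and 11 red columns beside them.

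**Figure D1:**
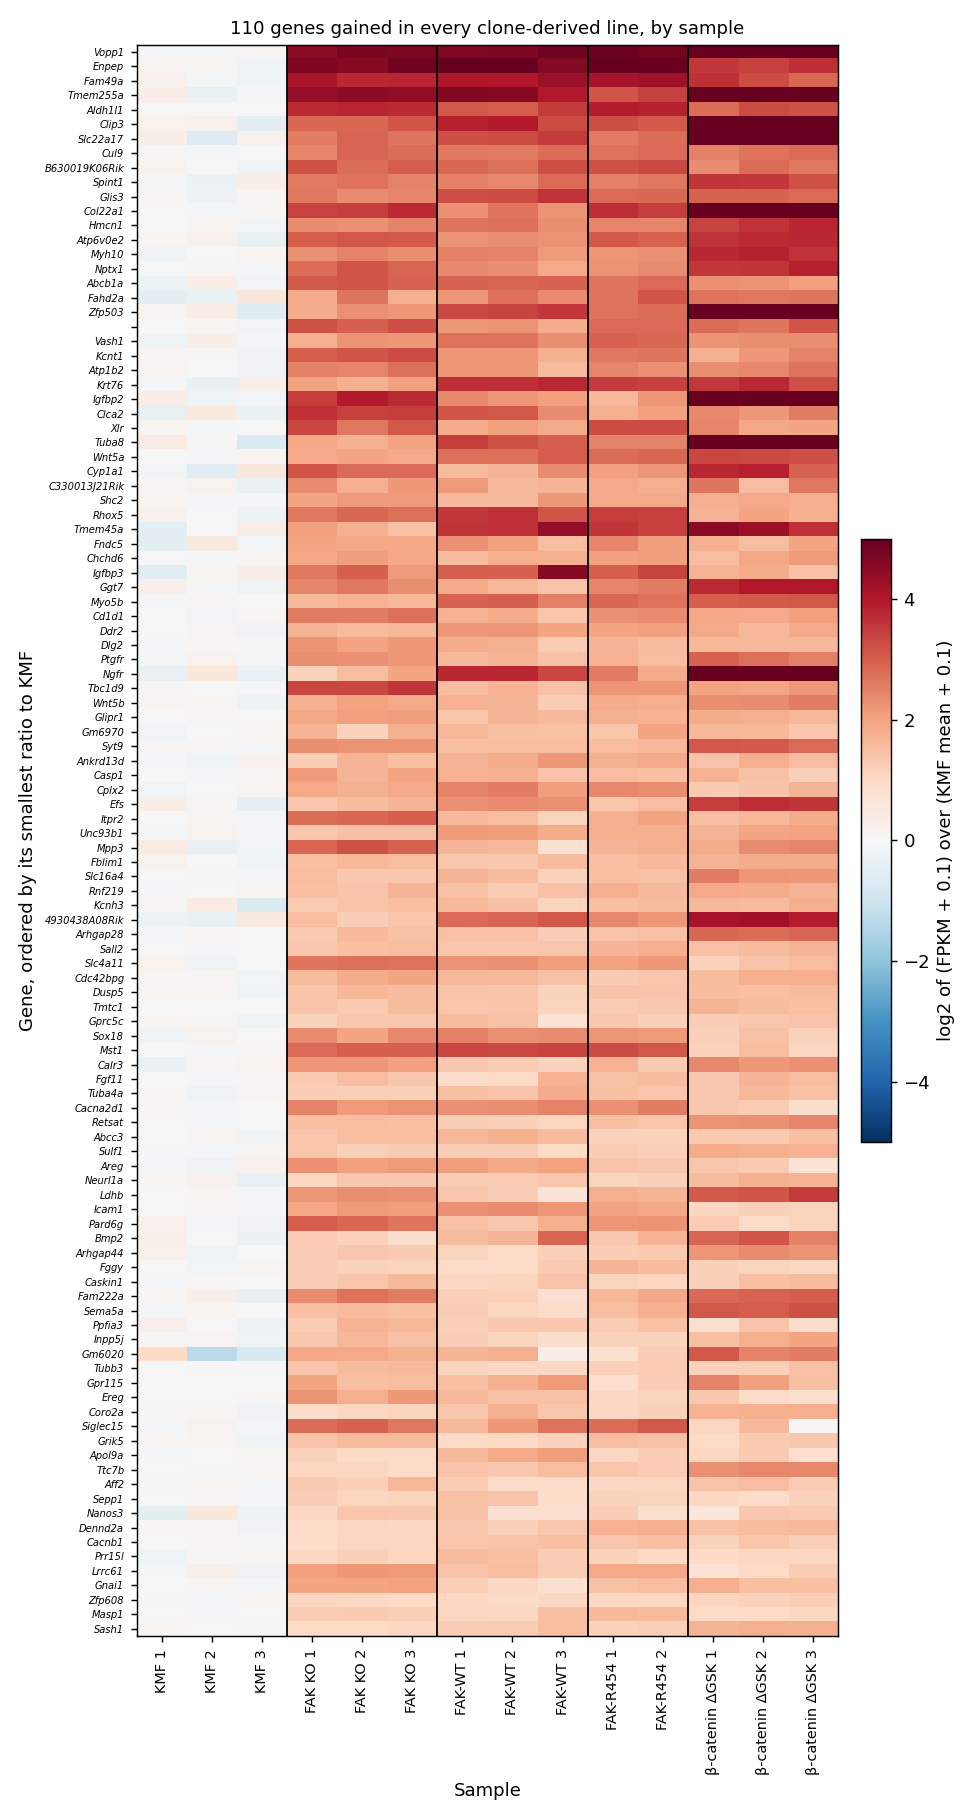
Log2 of FPKM + 0.1 over the KMF mean + 0.1 for 110 genes (vertical axis, ordered by the smallest of the 4 line ratios) in 14 samples (horizontal axis), with colors ending at a log2 ratio of 5 either way. The ratio falls from 24.8 for Vopp1 at the top to 2.01 for Sash1 at the bottom, and the β-catenin ΔGSK columns hold the darkest cells for Ngfr, Igfbp2, Zfp503 and Tmem255a.

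Vopp1, first known as a gene amplified together with EGFR in glioma, had the largest gain. It lies on chromosome 6 from 57727807 to 57825154 (mouse GRCm38, as are all positions here). It was nearly silent in KMF cells, at 0.0150, 0.0156 and 0.0309 FPKM, or 9 fragments in 3 samples. FAK KO samples held 2.58, 3.07 and 3.00 FPKM, FAK-WT samples 2.85, 2.98 and 3.40, FAK-R454 samples 3.53 and 3.25, and β-catenin ΔGSK samples 4.51, 4.05 and 3.85. All clone-derived samples lay far above KMF and close to each other. The smallest ratio, 24.8 with 0.1 FPKM added, was 3.81 with 1 FPKM added and 95.0 with 0.01, so its size is set by the value added. Vopp1 overlaps Lancl2 and the library kit does not mark strand; Lancl2 stood at 7.86 ± 0.443 FPKM in KMF and 9.36 ± 0.485 in FAK KO cells (SD, n = 3 each).

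Enpep, the membrane aminopeptidase A that trims angiotensin, was next. KMF samples held 0.329, 0.300 and 0.237 FPKM and FAK KO samples 9.83, 8.95 and 10.9. FAK-WT samples held 18.4, 16.6 and 9.30, FAK-R454 samples 12.3 and 11.7, and β-catenin ΔGSK samples 4.42, 4.11 and 4.90. The β-catenin ΔGSK samples were thus the lowest of the clone-derived ones, yet 11.8 times KMF by the ratio of means. Fam49a had a smallest ratio of 9.90 and Tmem255a, an X-linked membrane protein gene, one of 9.68. Aldh1l1, the cytosolic folate enzyme 10-formyltetrahydrofolate dehydrogenase, was at 0.294 ± 0.00607 FPKM in KMF cells and between 3.27 ± 0.542 in β-catenin ΔGSK and 5.73 ± 0.162 in FAK-R454 cells (SD, n = 3, 3 and 2). The remaining genes among the 15 with the largest smallest ratio were Clip3, Slc22a17, Cul9, B630019K06Rik, Spint1, Glis3, Col22a1, Hmcn1, Atp6v0e2 and Myh10, with ratios from 7.81 down to 4.76. In all, 23 of the 110 genes had a smallest ratio of at least 4.

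Promoters are shown for 6 members that later results return to or that differ in CpG content: Vopp1 with the largest gain, the neighbours Slc22a17 and Efs, Ngfr and Xlr, which differed between FAK-WT and FAK-R454 cells, and Casp1, which has few CpG. Each window runs from 250 bases before to 50 after the start RefSeq gives (build GRCm38.p6), 5′ to 3′ on the strand of the gene, with every CpG in capitals. CpG is the pair that DNA methyltransferases modify.
Vopp1, chr6:57825076-57825375, minus strand, 30 CpG: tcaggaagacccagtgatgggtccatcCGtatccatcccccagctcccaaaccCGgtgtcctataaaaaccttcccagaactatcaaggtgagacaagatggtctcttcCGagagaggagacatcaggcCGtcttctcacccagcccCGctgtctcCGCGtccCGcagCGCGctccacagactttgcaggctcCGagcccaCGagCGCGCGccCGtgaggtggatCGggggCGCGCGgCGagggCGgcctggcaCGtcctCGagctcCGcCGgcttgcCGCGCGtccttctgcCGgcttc
Slc22a17, chr14:54913083-54913382, minus strand, 13 CpG: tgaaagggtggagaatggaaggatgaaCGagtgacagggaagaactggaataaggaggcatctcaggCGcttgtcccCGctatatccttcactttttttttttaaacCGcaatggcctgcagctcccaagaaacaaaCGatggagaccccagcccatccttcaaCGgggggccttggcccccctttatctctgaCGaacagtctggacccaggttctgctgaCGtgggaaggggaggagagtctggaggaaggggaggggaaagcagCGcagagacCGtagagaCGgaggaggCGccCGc
Efs, chr14:54926739-54927038, minus strand, 27 CpG: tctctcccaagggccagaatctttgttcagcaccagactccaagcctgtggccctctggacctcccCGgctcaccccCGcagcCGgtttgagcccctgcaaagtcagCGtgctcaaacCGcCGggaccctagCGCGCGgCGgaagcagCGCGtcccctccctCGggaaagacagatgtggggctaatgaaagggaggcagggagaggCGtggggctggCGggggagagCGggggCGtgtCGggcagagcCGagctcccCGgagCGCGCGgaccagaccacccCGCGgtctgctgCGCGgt
Xlr, chrX:53797657-53797956, minus strand, 7 CpG: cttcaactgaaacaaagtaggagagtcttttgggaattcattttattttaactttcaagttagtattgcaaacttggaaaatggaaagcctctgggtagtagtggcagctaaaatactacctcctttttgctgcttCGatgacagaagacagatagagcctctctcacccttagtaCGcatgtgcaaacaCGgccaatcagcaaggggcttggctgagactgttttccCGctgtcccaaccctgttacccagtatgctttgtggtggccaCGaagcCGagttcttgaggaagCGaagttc
Ngfr, chr11:95587649-95587948, minus strand, 23 CpG: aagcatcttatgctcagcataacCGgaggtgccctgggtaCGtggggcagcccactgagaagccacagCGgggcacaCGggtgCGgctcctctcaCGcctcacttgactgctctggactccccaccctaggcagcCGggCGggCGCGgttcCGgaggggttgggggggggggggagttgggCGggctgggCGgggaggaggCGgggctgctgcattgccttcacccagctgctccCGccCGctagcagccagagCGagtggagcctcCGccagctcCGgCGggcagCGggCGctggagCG
Casp1, chr9:5298267-5298566, plus strand, 3 CpG: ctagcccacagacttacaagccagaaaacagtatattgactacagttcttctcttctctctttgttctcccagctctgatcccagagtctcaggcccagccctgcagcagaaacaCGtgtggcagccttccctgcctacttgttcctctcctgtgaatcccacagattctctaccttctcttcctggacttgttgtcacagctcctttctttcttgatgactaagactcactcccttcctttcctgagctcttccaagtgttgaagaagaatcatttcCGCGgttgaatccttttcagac

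Windows were found for 74 of the 110 members, 88 windows in all. Their median was 14.5 CpG, against 21 in 10931 windows of other expressed protein-coding genes and 7 in the whole table. Few CpG (under 5) were found in 20 member windows, or 22.7%, against 8.72% for the other expressed genes and 38.0% of the table. At least 20 CpG were found in 36.4%, against 54.7% and 26.5%. Letters of known motifs were searched on both strands. The Sp1 box GGGCGG, which holds a CpG, was in 45.5% of member windows, 64.3% of windows of other expressed genes and 35.7% of the table. In the same order, the TATA box TATAAA was in 13.6%, 6.85% and 13.6%, and the E-box CACGTG, also with a CpG, in 4.55%, 9.999% and 7.15%. The AP-1 letters TGANTCA were in 7.95%, 5.14% and 7.81%, the TEAD letters GGAATG in 15.9%, 11.9% and 14.7%, the TCF/LEF letters ATCAAAG in 2.27%, 2.47% and 3.73%, and the interferon response letters TTTCNNTTT in 6.82%, 7.42% and 10.6%. A match is only a run of letters. Methylation was not measured. The window matched to Clca2, chr3:145099057-145099356 with 2 CpG, lies far from the start of that gene, which runs from 144796559 to 144819494 on the minus strand. It may belong to another gene and is included in these counts.

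Of the 15 members with the highest levels, Ngfr, Igfbp2 and Zfp503 were under 1 FPKM in KMF cells, while the leading ones were well expressed there. Ldhb, the lactate dehydrogenase subunit that favors lactate oxidation, was at 27.6, 30.5 and 26.5 FPKM in KMF samples and 130, 140 and 136 in FAK KO samples. FAK-WT samples held 73.9, 66.8 and 44.5, FAK-R454 samples 99.7 and 91.2, and β-catenin ΔGSK samples 239, 249 and 319. The 5 lines did not overlap. Sepp1, the secreted selenium carrier selenoprotein P, was at 59.1 ± 2.18 FPKM in KMF and between 121 ± 8.92 and 144 ± 29.1 in lines grown from the clone (SD, n = 3 each), and the 4 lines did not separate from each other (adjusted p = 0.396, limma F test).

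Kcnt1, a sodium-activated potassium channel of neurons, was at 18.03, 17.7 and 15.2 FPKM in KMF samples and 140, 149 and 162 in FAK KO samples. It was at 78.1, 79.0 and 57.7 with FAK-WT, 106 and 110 with FAK-R454, and 58.9, 75.8 and 94.8 in β-catenin ΔGSK samples. FAK KO samples were the highest, and FAK-WT and β-catenin ΔGSK samples overlapped. Dusp5, a nuclear phosphatase of ERK, was at 30.4 ± 3.78 FPKM in KMF (SD, n = 3) and between 77.0 and 89.3 on average in the other lines. Gnai1, an inhibitory G protein subunit, was at 26.7 ± 1.58 in KMF, 106 ± 2.48 in FAK KO, 54.2 ± 7.39 with FAK-WT, 75.1 ± 2.61 with FAK-R454 and 81.9 ± 10.2 with β-catenin ΔGSK (SD, n = 3, 3, 3, 2 and 3), so its smallest ratio was 2.03. Sulf1, which removes sulfate from heparan sulfate chains, Neurl1a, a ubiquitin ligase, and the neuronal tubulin Tubb3 were also among the 15 with the highest levels, with smallest ratios of 2.23, 2.23 and 2.10. Icam1, the adhesion molecule for leukocyte integrins, was at 5.55 ± 0.339 FPKM in KMF and from 12.2 ± 0.495 in β-catenin ΔGSK to 27.5 ± 1.62 in FAK-WT cells (SD, n = 3 each).

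**Figure D2:**
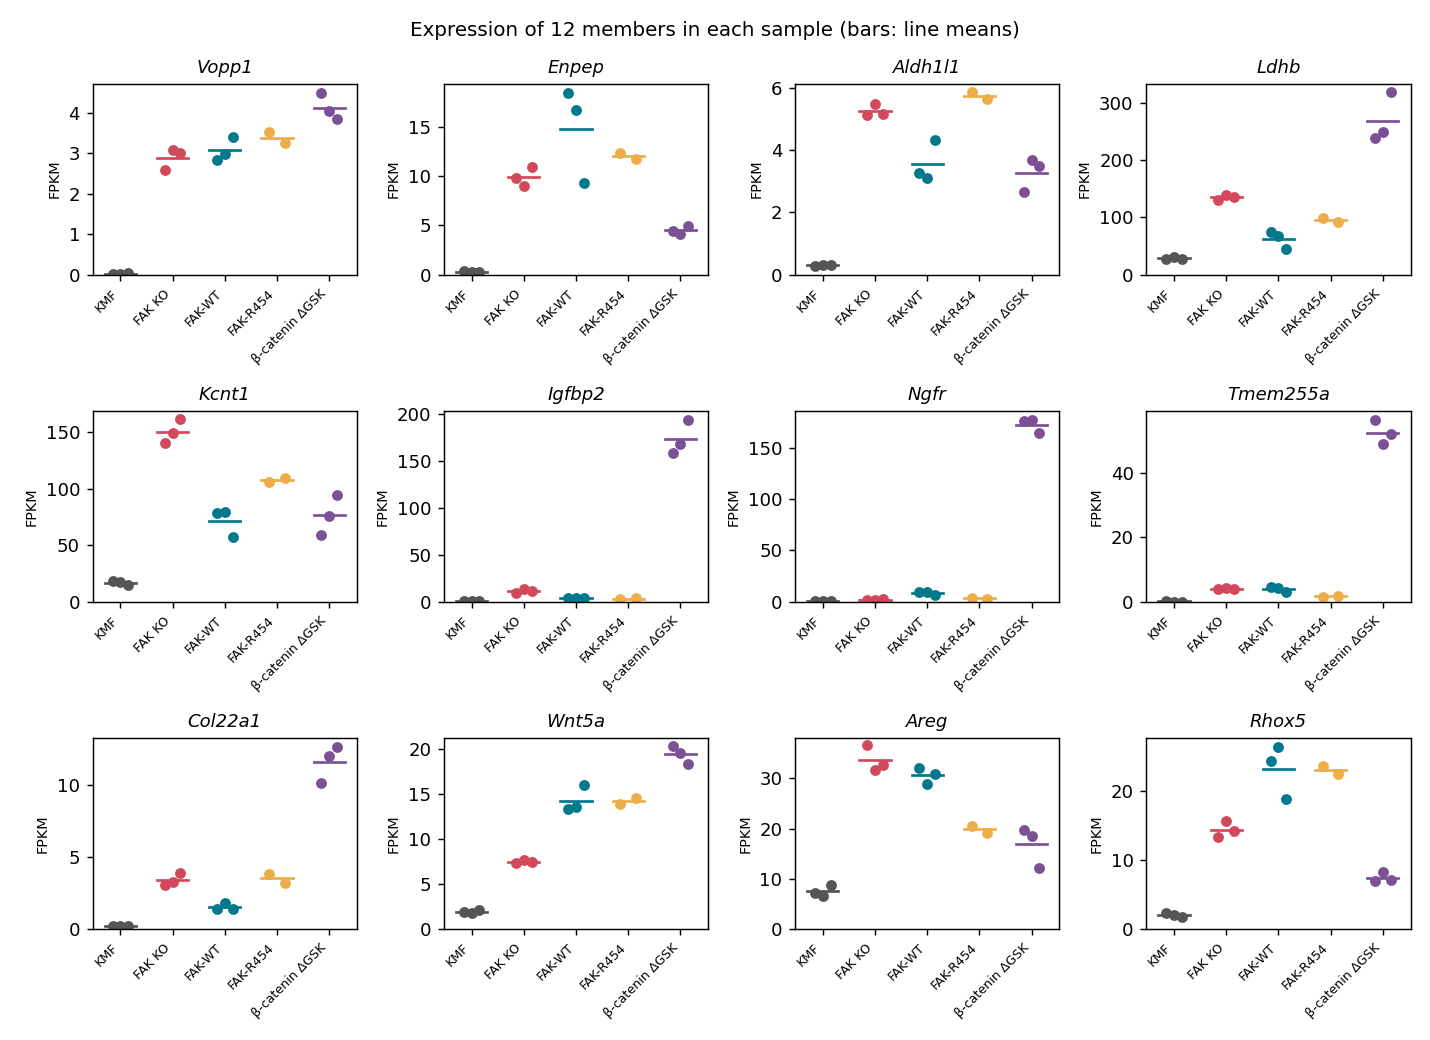
FPKM (vertical axes, linear, each from 0) of 12 members in every sample of the 5 lines (horizontal axes), with points for samples and bars for line means. Vopp1 sits near 0 in KMF and between 2.58 and 4.51 in all other samples, while Ngfr reaches 164 to 177 only in β-catenin ΔGSK samples.

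To describe what the genes do, 88 of the 110 were sorted by known role. The sorting was made after their values were seen, so no group was tested. The largest group, 24 genes, held secreted signals, receptors and their transducers, with a median of 11.7 FPKM over the clone-derived lines. Among ligands, Wnt5a, which acts mainly without β-catenin, was at 1.89 ± 0.169 FPKM in KMF, 7.44 ± 0.197 in FAK KO, 14.3 ± 1.48 with FAK-WT, 14.2 ± 0.504 with FAK-R454 and 19.4 ± 1.01 with β-catenin ΔGSK (SD, n = 3, 3, 3, 2 and 3). Its paralog Wnt5b was at 1.93 ± 0.280 in KMF and from 5.99 ± 1.08 in FAK-WT to 10.8 ± 1.06 with β-catenin ΔGSK (SD, n = 3 each). Both had their highest mean with β-catenin ΔGSK.

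Areg and Ereg, which encode the EGF receptor ligands amphiregulin and epiregulin, are neighbours on chromosome 5. Areg was at 7.09, 6.57 and 8.84 FPKM in KMF, 36.5, 31.6 and 32.7 in FAK KO, 32.0, 28.9 and 30.9 with FAK-WT, 20.5 and 19.2 with FAK-R454, and 19.8, 18.6 and 12.1 in β-catenin ΔGSK samples. Ereg was at 1.59 ± 0.0579 in KMF, 6.99 ± 1.07 in FAK KO, 4.72 ± 0.291 with FAK-WT, 3.44 ± 0.106 with FAK-R454 and 3.39 ± 0.668 with β-catenin ΔGSK (SD, n = 3, 3, 3, 2 and 3). Among the 4 lines both had the highest mean in FAK KO cells, and FAK-R454 cells and β-catenin ΔGSK cells were the lowest and lay within their spread of each other for Ereg. Bmp2, a bone morphogenetic protein, was at 3.13, 2.66 and 2.11 FPKM in KMF, 6.48, 5.90 and 4.97 in FAK KO, 8.07, 8.80 and 20.5 with FAK-WT, 6.87 and 8.93 with FAK-R454, and 20.4, 24.0 and 15.5 in β-catenin ΔGSK samples. The third FAK-WT sample alone reached the β-catenin ΔGSK range. The same sample was high for Igfbp3, an IGF-binding protein, at 13.2 FPKM against 4.42 and 4.46 in the others of its line. The receptors among the members included Ngfr, the low-affinity neurotrophin receptor, Ddr2, a collagen receptor kinase at 1.47 ± 0.166 in KMF and 4.84 ± 0.163 to 6.70 ± 0.504 in other lines (SD, n = 3 each), and Ptgfr, the prostaglandin F receptor.

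A second group, 17 genes, encoded ion channels and proteins known from neurons and synapses, although the cells are ovarian tumor cells. Its clone-derived median was 4.62 FPKM against 1.02 in KMF. It held the channels and channel subunits Kcnt1, Kcnh3, Cacna2d1, Cacnb1, Grik5 and Itpr2, and the channel regulator Clca2. It also held the synaptic proteins Nptx1, Syt9, Cplx2, Dlg2, Ppfia3, Caskin1 and Mpp3, and Tubb3, Atp1b2 and Neurl1a. Grik5, a kainate receptor subunit, was at 2.42 ± 0.287 FPKM in KMF and 5.10 ± 0.335 to 7.22 ± 0.418 in the clone-derived lines (SD, n = 3 each). Rest, the repressor of neuronal genes, was at 11.4 ± 0.774 FPKM in KMF and 14.5 ± 0.456 in FAK KO cells (SD, n = 3 each). On a list of 39 neuronal genes, 11 were expressed and 2 of them, Grik5 and Tubb3, were members.

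Transporters and metabolic enzymes made up 16 members. Abcb1a, a P-glycoprotein drug pump, was at 0.399, 0.638 and 0.431 FPKM in KMF, 4.83, 5.14 and 4.50 in FAK KO, 4.43, 4.33 and 4.49 with FAK-WT, 3.70 and 4.06 with FAK-R454, and 2.79, 2.73 and 2.35 in β-catenin ΔGSK samples. No clone-derived sample came near KMF. Abcc3, another drug efflux pump, was at 0.610 ± 0.0774 in KMF and 1.496 ± 0.00100 (FAK-R454, SD, n = 2) to 2.17 ± 0.151 (FAK-WT, SD, n = 3). Of 11 expressed genes on the drug transport list these 2 were members. Cyp1a1, the aryl hydrocarbon receptor target, was at 2.53 ± 1.03 FPKM in KMF and 9.82 ± 3.02 in FAK-WT to 31.7 ± 10.1 with β-catenin ΔGSK (SD, n = 3 each). Aldh1l1 was the 1 member among 25 expressed aldehyde dehydrogenase and retinoid genes listed.

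The cytoskeleton, adhesion and matrix group held 16 members, among them Myh10 (nonmuscle myosin IIB), Myo5b, Clip3, Tuba8, Tuba4a, Krt76, Hmcn1, Col22a1, Icam1 and Spint1, a protease inhibitor of epithelia. Their KMF median was 0.736 FPKM and their clone-derived median 5.35. Col22a1 was the 1 member of 21 expressed collagen genes. The immune and cell death group held 6: Casp1, the caspase of inflammasomes, Cd1d1, which presents lipids to natural killer T cells, Unc93b1, Siglec15, Masp1 and Apol9a. Casp1 was at 3.19 ± 0.104 FPKM in KMF and from 9.07 ± 1.65 to 12.6 ± 1.91 elsewhere (SD, n = 3 each).

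Transcription factors and germline regulators made up 9 members, with Glis3, Zfp503, Sall2, Sox18 and Zfp608 as zinc finger or HMG-box genes. Rhox5, an X-linked homeobox gene of testis and epididymis often switched on in tumor lines, was at 2.37, 2.04 and 1.69 FPKM in KMF, 13.3, 15.7 and 14.2 in FAK KO, 24.4, 26.5 and 18.9 with FAK-WT, 23.6 and 22.4 with FAK-R454, and 7.01, 8.20 and 7.17 in β-catenin ΔGSK samples. FAK-WT and FAK-R454 overlapped each other and no other line. Xlr, Nanos3 and Aff2 were also members. Xlr, Abcb1a, Apol9a, Clca2, Gm6020 and Gm6970 have close relatives, so fragments may be assigned to the wrong copy and their levels are uncertain. Of 35 gene lists, 18 held at least 1 member and 17 none, where members made up 0.966% of all expressed protein-coding genes. The list of receptor tyrosine kinases and growth factors, also the one with the most expressed genes, held 6 of 44: Areg, Ereg, Igfbp2, Igfbp3, Ngfr and Ddr2. That list is broader than its name, since it takes in IGF-binding proteins and the low-affinity neurotrophin receptor Ngfr.

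At the threshold of the rule, Sash1, Masp1 and Zfp608 were just inside, with smallest ratios of 2.01, 2.02 and 2.02, and Ptpru, Tlx2 and Actr3b just outside, with 2.00, 1.98 and 1.96. Actr3b missed because of β-catenin ΔGSK cells, at 4.65 FPKM against 74.2 in FAK KO. Nothing separates the 2 sides but the threshold, and 31 members had a smallest ratio under 2.2.

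The rule did not set the 4 clone-derived lines against each other, but its floor of 2 times KMF limits how far a line can fall. Shares of members beside shares of all genes are therefore a description. Differences among the 4 lines were tested with limma on log2(FPKM + 0.1), a scale that understates changes of low genes. Genes were called at an adjusted p below 0.05 (adjustment of Benjamini and Hochberg over every gene tested), with a log2 difference of at least 1 and a mean above 1 FPKM in the higher line. Over all 4 lines, 52 of the 110 members were called different by limma's F test with a highest mean at least 2 times the lowest, or 47.3%, against 17.8% of the 12126 genes tested. Without any 1 sample the count stayed between 50 and 55. At any fold, 89 members had an adjusted p under 0.05 in limma's F test, or 80.9%, against 72.7% of all genes tested. The median ratio of highest to lowest line was 1.92 for members and 1.33 for 10300 protein-coding genes above 1 FPKM in all 4 lines. β-catenin ΔGSK cells were the highest of the 4 for 52 members, FAK KO for 24, FAK-WT for 18 and FAK-R454 for 16. FAK-WT cells were the lowest for 42, FAK KO for 27, β-catenin ΔGSK for 25 and FAK-R454 for 16. The highest line was not counted over all genes, so these counts describe the members only. Over all genes tested, 611 were called higher and 833 lower in β-catenin ΔGSK than in FAK KO cells.

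**Figure D3:**
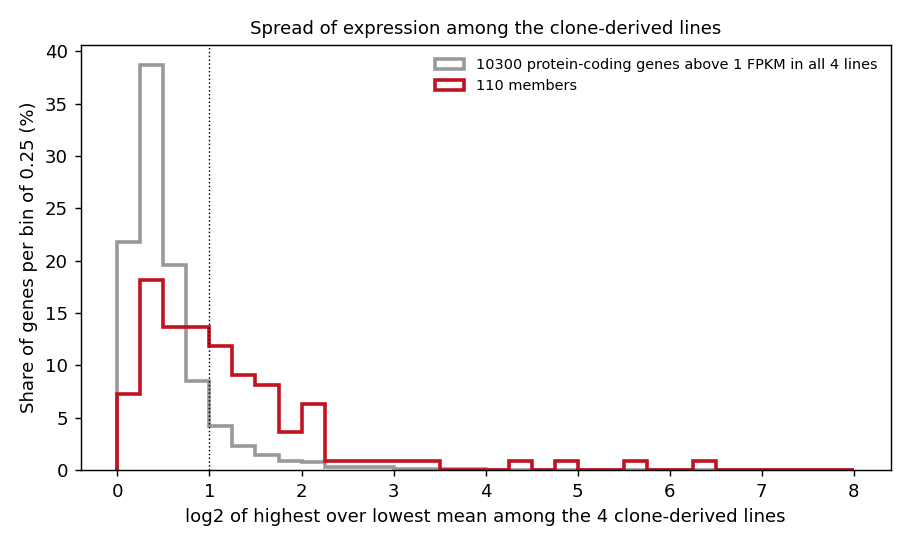
Share of genes (vertical axis, %) by log2 of the highest over the lowest mean among the 4 clone-derived lines (horizontal axis, bins of 0.25), for 110 members and 10300 protein-coding genes above 1 FPKM in all 4 lines; the dotted line marks a ratio of 2. The ratio is 2 or more for 47.3% of members and 11.4% of the comparison genes.

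The steadiest members were Gprc5c, Cul9, Zfp608, Gm6970 and Dusp5, with ratios of highest to lowest line from 1.04 to 1.16. Gprc5c, an orphan receptor, was at 7.57 ± 0.917 FPKM in KMF, then 18.7 ± 1.35, 18.9 ± 5.46, 18.5 ± 1.53 and 19.2 ± 1.40 in FAK KO, FAK-WT, FAK-R454 and then β-catenin ΔGSK cells (SD, n = 3, 3, 3, 2 and 3), with adjusted p = 0.985 in limma's F test. Cul9, a cytoplasmic cullin, was at 0.491 ± 0.0296 in KMF and 3.69 to 3.94 on average in the others (adjusted p = 0.928, limma F test). A p above the threshold does not show equal levels. The most variable were Ngfr, Igfbp2, Tmem255a, Zfp503 and Tuba8, with ratios from 82.4 down to 10.9.

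FAK-WT cells were compared with FAK KO cells to ask which members differ with FAK re-expression, its transduction, selection and sorting included. Between FAK-WT and FAK KO cells, 7 of the 110 members rose and 12 fell (6.36% and 10.9%), against 2.91% and 1.71% of 11841 genes. Tmem45a rose by a log2 difference of 2.10 (standard error 0.23), Ngfr by 2.06 (0.21), Krt76 by 1.75 (0.10), 4930438A08Rik by 1.56 (0.12) and Zfp503 by 1.31 (0.12), with adjusted p of 4.12e-04, 2.89e-04, 1.74e-05, 1.00e-04 and 1.99e-04 from limma. These genes thus lay even farther from KMF with FAK than without it. Krt76, an epithelial keratin, was at 3.19, 2.69 and 3.24 FPKM in FAK KO and 10.1, 10.1 and 11 in FAK-WT samples, against 0.655, 0.542 and 0.919 in KMF.

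The falls went toward KMF and stopped above it, as the rule requires. Tbc1d9, a Rab GTPase-activating protein, fell by 1.83 (standard error 0.12, adjusted p = 3.76e-05), from 5.11, 5.07 and 5.98 FPKM in FAK KO to 1.41, 1.61 and 1.32 in FAK-WT samples, with KMF at 0.416 ± 0.0228 (SD, n = 3). Mpp3, a synaptic scaffold, fell by 1.64, Igfbp2 by 1.49, Fam222a by 1.49 and Itpr2, an endoplasmic calcium channel, by 1.46, with adjusted p from 1.10e-04 to 0.00157 (limma). Pard6g, Ldhb, Col22a1, Xlr, Kcnt1 and Cyp1a1 fell by 1.32 to 1.06. Without the third FAK-WT sample 16 calls were left, and those of Ldhb and Kcnt1 were among the lost. Xlr was lost without the first FAK KO sample, and Cyp1a1 without the first FAK KO or the first or second FAK-WT sample. With each chromosome centred on its median the split was 9 higher and 6 lower, 13 of the 19 calls were kept, and those of Pard6g, Ldhb, Xlr, Kcnt1 and Cyp1a1 were among the lost. Their differences were then -0.99, -0.98, -0.98, -0.92 and -0.98, just short of the fold for a call, with adjusted p from 0.00136 to 0.00837 (limma). The median log2 difference was -0.08 for members and -0.08 for all genes tested.

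Between FAK-R454 (n = 2) and FAK KO cells, which are also the reference of the preceding comparison, 3 members rose and 5 fell, against 1.93% and 0.812% of 11818 genes. Tmem45a rose by 1.72 (standard error 0.16), Krt76 by 1.51 (0.11) and Myo5b, a motor of membrane recycling, by 1.13 (0.11), with adjusted p = 4.05e-04, 1.42e-04 and 4.13e-04 from limma. Igfbp2 fell by 1.79, Clca2 by 1.56, Mpp3 by 1.25, Tbc1d9 by 1.20 and Tmem255a by 1.17, with adjusted p from 1.82e-04 to 8.16e-04 (limma). Clca2, a calcium-activated chloride channel regulator, was at 6.15, 5.27 and 5.33 FPKM in FAK KO, 1.68 and 1.98 with FAK-R454, and 0.292, 0.608 and 0.302 in KMF samples. All 8 calls were kept without any 1 sample.

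FAK-WT and FAK-R454 cells, compared directly to ask what the kinase activity adds, differed in 2 members each way, against 0.696% higher and 0.747% lower of 11782 genes. Ngfr was higher in FAK-WT cells by 1.39 (standard error 0.24, adjusted p = 0.0284) and Tmem255a by 1.13 (0.21, adjusted p = 0.0316, limma). Ngfr stood at 9.22, 9.42 and 6.87 FPKM in FAK-WT and 4.11 and 2.42 in FAK-R454 samples. Xlr was lower by 1.33 (0.11, adjusted p = 0.00357) and Col22a1 by 1.16 (0.17, adjusted p = 0.0179, limma). Xlr stood at 1.55, 1.803 and 1.63 FPKM in FAK-WT and 4.32 and 4.33 in FAK-R454 samples, without overlap, and FAK KO samples at 4.61, 2.80 and 3.84 overlapped FAK-R454. None of the 4 calls was kept without either FAK-R454 sample, which leaves that line with 1 sample assumed to vary like the others. Without the first FAK-WT sample only Xlr was left, and without the second Xlr and Col22a1. Without the third FAK-WT sample all 4 were kept among 6 calls. At any fold, 9 members were higher and 14 lower at an adjusted p under 0.05 (limma), or 8.18% and 12.7%, against 3.38% and 4.44% of all genes tested. Ptk2 mRNA itself stood at 43.4 ± 1.76 FPKM in FAK-WT and 62.4 ± 4.42 in FAK-R454 cells (SD, n = 3 and 2), so the level of FAK mRNA differed between them along with the kinase activity, and its part was not tested.

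The comparison of β-catenin ΔGSK with FAK KO cells held the most calls of the 4. Against FAK KO cells 21 rose and 12 fell (19.09% and 10.9%), where 5.13% and 6.99% of 11915 genes did. At any fold, 40.0% of members were higher and 29.1% lower at an adjusted p under 0.05 (limma), against 23.7% and 34.4% of all genes. The larger share of falls among members thus depends on the fold threshold. The median log2 difference was 0.14 for members and -0.09 for all genes tested. Ngfr rose by 6.40 (standard error 0.18, adjusted p = 2.95e-08, limma), from 1.45, 1.90 and 2.64 FPKM in FAK KO to 176, 177 and 164 in β-catenin ΔGSK samples. Zfp503, a zinc finger repressor of development, rose by 4.26 (0.11), Igfbp2, an IGF-binding protein, by 3.90 (0.13), Tmem255a by 3.68 (0.08) and Tuba8, an α-tubulin, by 3.45 (0.09), with adjusted p = 2.07e-08, 9.11e-08, 5.94e-09 and 2.00e-08 (limma). Igfbp2 went from 9.48, 13.7 and 11.5 to 158, 168 and 194 FPKM, with KMF at 0.784 ± 0.188 (SD, n = 3). In FAK KO cells the ratio to KMF, which the rule used, was 3.03 for Ngfr and 13.2 for Igfbp2.

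Slc22a17, the lipocalin 2 receptor, rose by 3.06 and its neighbour Efs, a Cas-family adaptor bound by FAK and Src, by 2.04 (adjusted p = 3.22e-07 and 9.74e-07, limma). Clip3, Bmp2, Col22a1, Sema5a, Myh10 and Wnt5a rose by 2.21, 1.76, 1.75, 1.60, 1.39 and 1.37. Of the Wnt pathway list, 13 of 30 genes tested rose and 2 fell in this comparison, with a median of 0.78, and Wnt5a was the 1 member among the 13. Siglec15, a sialic acid receptor, fell by 1.87 (0.34, adjusted p = 0.00159), Pard6g, a polarity protein, by 1.75 (0.13, adjusted p = 7.80e-06), Mst1, macrophage-stimulating protein, by 1.67 (0.13, adjusted p = 1.21e-05), and Tbc1d9 and Slc4a11 by 1.34 each (limma). Mst1 was at 7.19, 7.99 and 7.94 FPKM in FAK KO, 2.204, 2.88 and 2.05 in β-catenin ΔGSK and 0.948, 0.846 and 0.979 in KMF samples. Areg and Ereg fell by 1.02 and 1.03, and their calls were lost without the third β-catenin ΔGSK sample or the first FAK KO sample. Ereg was also lost without the third FAK KO or the second β-catenin ΔGSK sample, Cacna2d1 without the third β-catenin ΔGSK sample and Lrrc61 without the first. With each chromosome centred on its median, Areg, Ereg and Lrrc61 were among the lost calls, at -0.72, -0.72 and -0.92 with adjusted p = 0.00573, 0.00402 and 5.84e-04 (limma). The number called ran from 31 to 38 without any 1 sample.

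**Figure D4:**
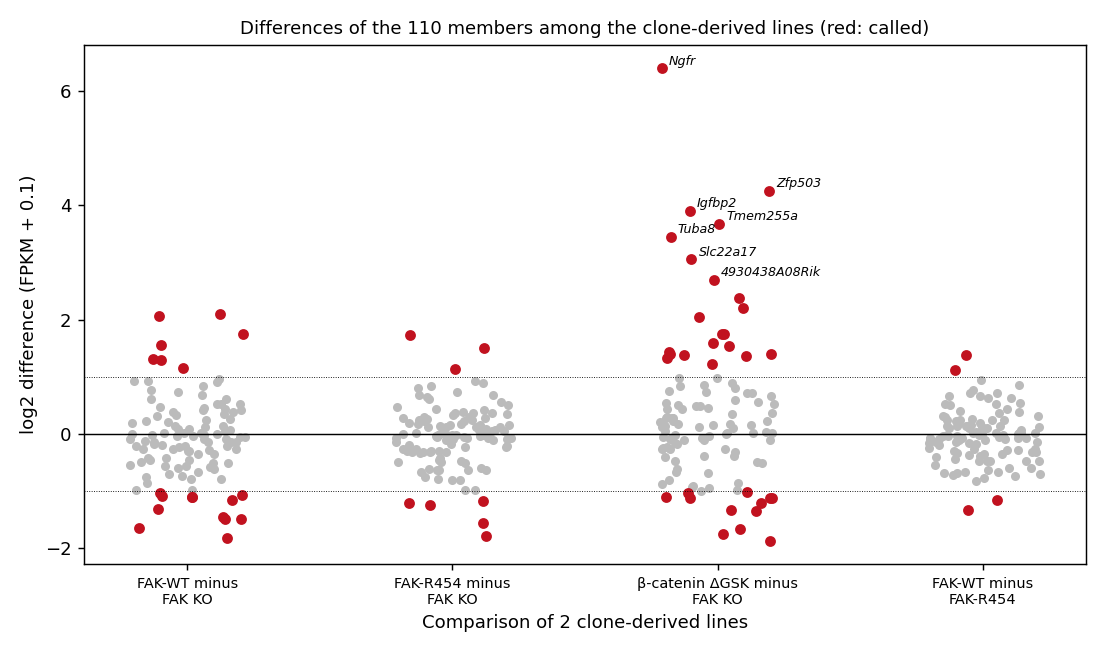
Log2 difference of FPKM + 0.1 (vertical axis) of each of the 110 members in 4 comparisons of clone-derived lines (horizontal axis), with called genes in red and dotted lines at 1 and -1. Called members number 19, 8, 33 and 4 from left to right, and Ngfr reaches 6.40 in β-catenin ΔGSK minus FAK KO.

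The members lay on 20 chromosomes. Chromosome 11 held 14 (12.7%, with 8.48% of expressed protein-coding genes), chromosome 6 held 12 (10.9% and 4.83%), chromosome 19 held 8 (7.27% and 3.78%) and chromosome X held 6 (5.45% and 3.05%). The other expressed genes of chromosomes 6 and 19 had medians above KMF in all 4 lines. Their median log2 difference from KMF on chromosome 6 was 0.33, 0.14, 0.29 and 0.13 in FAK KO, FAK-WT, FAK-R454 and then β-catenin ΔGSK cells, and on chromosome 19 it was 0.25, 0.28, 0.21 and 0.21. On chromosome 11, which held the most members, it was 0.15, 0.09, 0.15 and 0.14. For chromosome X it went both ways, at 0.12, -0.08, 0.04 and -0.10. On chromosome 13, with 1 member (0.909% and 3.82%), it was 0.25, 0.02, 0.15 and 0.16, and on chromosome 18, with 4 (3.64% and 2.49%), it was 0.39, -0.02, 0.21 and -0.02. Over all chromosomes the median was 0.04, -0.04, 0.00 and -0.05. With each chromosome centred on its median in each sample, 96 of the 110 genes still met the rule. The part of copy number in the gains was not tested.

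**Figure D5:**
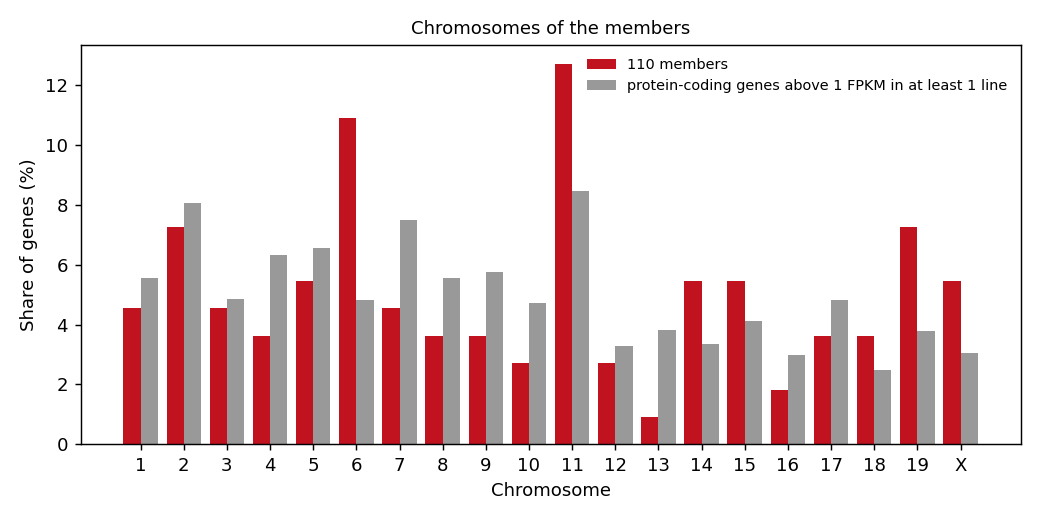
Share (vertical axis, %) of the 110 members and of 11384 protein-coding genes above 1 FPKM in at least 1 line on each chromosome (horizontal axis). Members exceed the comparison on chromosome 6 (10.9% and 4.83%), 11 (12.7% and 8.48%) and 19 (7.27% and 3.78%). They also exceed it on chromosome X (5.45% and 3.05%), 14 (5.45% and 3.34%), 15 (5.45% and 4.12%) and 18 (3.64% and 2.49%).

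Among expressed protein-coding genes, 4 pairs of members were direct neighbours. Slc22a17 and Efs lie on the minus strand of chromosome 14, with 3411 bases between them. Atp6v0e2, a proton pump subunit, and Lrrc61 lie on chromosome 6 with 12998 bases between them, Gm6970 and Neurl1a on chromosome 19 with 7686, and Ereg and Areg on chromosome 5 with 45966. The neighbours did not always move alike: with β-catenin ΔGSK, Lrrc61 fell by 1.11 (adjusted p = 1.60e-04, limma) while Atp6v0e2 went from 6.87, 7.33 and 7.14 to 10.6, 11.5 and 11.7 FPKM without reaching the fold for a call. Of the 209 nearest expressed neighbours that were no members, 6.70%, 7.18%, 6.22% and 8.13% were at least 2 times KMF in FAK KO, FAK-WT, FAK-R454 and then β-catenin ΔGSK cells, against 3.33%, 3.31%, 3.75% and 5.06% of all expressed protein-coding non-members. The median log2 difference from KMF of these neighbours was 0.18, 0.09, 0.16 and 0.12, against 0.04, -0.04, 0.00 and -0.05 for all such non-members. Most genes beside a member were below 2 times KMF, as were most other non-members.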

How the data were processed

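RNA from 14 tumorsphere samples of 5 lines was sequenced as poly(A)-selected libraries made with a kit that does not mark strand. The authors deposited 1 table of FPKM per gene and sample. The paper's methods name TopHat2, whereas the submitters' processing notes list CASAVA 1.8, STAR 2.5, DESeq2 and mm10, so the aligner behind the FPKM is uncertain. FPKM times gene length, divided by a step fitted in each sample, gave whole fragments for 100% of values (within 0.01), from 25390558 fragments per sample upward, which gives the depth.

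Members were found by their rule on line means, and the members, gene lists and tests were chosen with earlier results of these data known. Contrasts with KMF were used by the rule and were not tested. Clone-derived lines were compared with limma 3.58.1 (R 4.3.3, eBayes with a trend) on log2(FPKM + 0.1) of the samples of 2 lines, over all genes above 1 FPKM in at least 1 of them, with Benjamini-Hochberg adjustment. The fit was tested on simulated data. Alternatives changed the pseudocount, filter, scaling, trend, fit, fold and samples, and used limma-voom on recovered fragments, a replicate block and each chromosome centred.

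Members named with values were drawn from the 15 highest, the 15 with the largest smallest ratio and the 5 most and least variable. They were also drawn from the 5 with the largest calls each way, those nearest the threshold, those on a list and neighbours. Not all of these are named, and other names were chosen after their values were seen. Samples of a line differed by more than counting noise, and none was merged. No column of per-sample values was left out, and RefSeq promoter windows were matched by gene ID or symbol. For 1 member the values are not reported here, and its row in the plot of all members has no name.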

Additional observations from a re-analysis of the deposited data

Results flagged for a closer look

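The effects of the 2 re-expressed forms of FAK over FAK KO differed, by limma's direct test between FAK-WT and FAK-R454 cells, in 4 members. FAK-WT minus FAK-R454 was 1.39 for Ngfr, 1.13 for Tmem255a, -1.16 for Col22a1 and -1.33 for Xlr on the log2 scale, with adjusted p of 0.0284, 0.0316, 0.0179 and 0.00357. FAK-R454 had 2 samples, and without either of them none of the 4 calls was kept. No line had the 4 samples that a test for a single outlying sample needs.

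Genes that are not classed as protein coding were outside the rule. Of the 872 above 1 FPKM in at least 1 line, 10 met the same thresholds, where 0.966% of expressed protein-coding genes did. The report's comparisons do not use these 10 genes. Ptprv, listed as a processed transcript, was at 2.34 ± 0.393 FPKM in KMF and 13.6 ± 1.48, 13.7 ± 3.72, 14.6 ± 0.714 and 15.9 ± 3.71 in FAK KO, FAK-WT, FAK-R454 and then β-catenin ΔGSK cells (SD, n = 3, 3, 3, 2 and 3). Hotairm1, an antisense transcript of the HoxA cluster, was at 0.477 ± 0.208 FPKM in KMF and 4.44 ± 0.871 in FAK KO cells (SD, n = 3 each). Xist, the RNA that coats the inactive X chromosome, was at 4.203 ± 0.371 FPKM in KMF, 19.96 ± 2.67 in FAK KO and 11.9 ± 0.214 with β-catenin ΔGSK (SD, n = 3 each). G730013B05Rik, 5830416P10Rik, Gm14439, Gm11695, Gm15706, Gm20442 and Gm12603 had smallest ratios to KMF from 3.83 down to 2.21. Antisense transcripts cannot be told from the genes they overlap, since the kit does not mark strand.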

How the results depend on the processing

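The size of the gene set depends on the rule. With 1 FPKM added to the means 55 genes met it, with a fold of 1.5 there were 235, with a fold of 4 there were 23, above 5 FPKM there were 38, and when every clone-derived sample had to reach 2 times the highest KMF sample there were 64. The 110 genes became 98 to 113 when any 1 sample was left out. The 4 comparisons gave more calls with no fold threshold, 62 for FAK-WT over FAK KO, 43 for FAK-R454 over FAK KO, 76 for β-catenin ΔGSK over FAK KO and 23 for FAK-WT over FAK-R454 (56.4%, 39.1%, 69.1% and 20.9% of members, against 40.8%, 19.7%, 58.1% and 7.82% of all genes tested). FAK-R454 over FAK KO gave 5 calls with no filter and 4 with pseudocount 1, and FAK-WT over FAK-R454 gave 1 above 5 FPKM, 1 with no filter and 2 with pseudocount 1; the cause was not tested. Leaving out 1 sample at a time gave, in the same order, 16 to 21, 8 to 12, 31 to 38 and 0 to 6 calls, and 50 to 55 in the F test. Same-numbered samples deviated together in β-catenin ΔGSK and FAK KO (correlations 0.48, 0.32 and 0.10) and not elsewhere (-0.24 to 0.03). No label ties the numbers to a batch. With the replicate number as a block the calls were 19, 8, 33 and 6, and 51 in the F test. No named difference or ratio changed direction. Over all alternatives, 854 values of named differences stayed on the same side of the threshold and 65 calls were lost, while 1126 values of named ratios to KMF moved by less than the spread between replicates and 166 by more. Genes with few KMF fragments limit the ratios.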
